A study of Homo sapiens with 8 samples.

Results

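The serine proteases and protease inhibitors of epithelial cell surfaces were followed through 8 RNA-seq libraries of SW1990, an established human pancreatic adenocarcinoma cell line. The set holds 10 genes of the 38637 listed. PRSS22 and PRSS36 were taken from the study's heat map, so they were chosen by their higher values in these same libraries, and their changes are given as a description with no test. The other 8 genes (PRSS8, PRSS23, ST14, TMPRSS2, TMPRSS4, HPN, SPINT1 and SPINT2) were added as members of the same families, with earlier results of these data known. The 4 groups hold 2 libraries each. They are SW1990 cells with a control vector (Vector), cells that overexpress EBF2 (EBF2-OE), cells given the vehicle (Vehicle) and cells exposed to GSK-LSD1, a selective inhibitor of the histone demethylase KDM1A (also called LSD1), at a dose the sample titles give as 2000 µM. The untreated background is the same cell line throughout, and nothing in the labels says that the libraries of a group came from separate cultures. The p-values therefore measure only the spread between these libraries, which may be technical.

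Serine proteases of this kind are made as inactive zymogens and cut proteins at the cell surface. Matriptase (ST14) and prostasin (PRSS8) activate each other in epithelia, and hepsin (HPN) and the transmembrane proteases TMPRSS2 and TMPRSS4 belong to the same type II membrane-anchored family as matriptase. PRSS22 (brain-specific serine protease 4, or tryptase epsilon), PRSS36 (polyserase-2) and PRSS23 are secreted relatives. The Kunitz-domain proteins SPINT1 (HAI-1) and SPINT2 (HAI-2) sit in the membrane of epithelial cells and block matriptase, hepsin and prostasin. The balance of matriptase and its Kunitz inhibitors is studied in carcinomas of epithelial origin.

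The libraries held between 20453362 and 27054876 counts on genes. EBF2 had 28 and 28 counts in Vector and 5818 and 90100 in EBF2-OE, so both EBF2-OE libraries carried the transcript at very different levels. KDM1A mRNA does not check the GSK-LSD1 labels, because the compound acts on the protein. The typical variation between libraries of a group was 19.0% in the EBF2-OE and Vector libraries and 5.87% in the GSK-LSD1 and Vehicle libraries (biological coefficient of variation). The epithelial label held only in part. KRT8 and KRT18, the keratins of simple epithelia, averaged 2645 and 2281 TPM (TPM, a level per transcript length). The epithelial markers KRT7, MUC1, ELF3 and CLDN4 averaged 715, 147, 146 and 43.5 TPM. By contrast, the epithelial adhesion genes EPCAM and CDH1 reached at most 20 and 57 counts. KRT19, ESRP1, GRHL2 and OVOL1 averaged 0.319 TPM or less. The mesenchymal filament gene VIM averaged 1131 TPM, but the other mesenchymal markers averaged from 2.31 (COL3A1) to 96.8 TPM (FN1). Of the 10 acinar and islet markers, 9 had at most 10 counts in every library. In bulk RNA, fewer cells that express a gene and less RNA per cell cannot be told apart.

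PRSS23 and ST14 were the most abundant members and TMPRSS2 was not detected. PRSS23 averaged 70.8 TPM over the 8 libraries, from 49.8 to 88.0 TPM, and ST14 averaged 31.2 TPM, from 27.9 to 35.9 TPM. These ranges did not meet each other or those of the other members. Below them the mean levels ran from PRSS36 (4.15 TPM) and PRSS22 (2.97 TPM) through SPINT2 (2.07 TPM), PRSS8 (0.962 TPM), SPINT1 (0.632 TPM) and HPN (0.350 TPM) to TMPRSS4 (0.242 TPM). Each neighbour in this lower order overlapped the next in its range over libraries. TMPRSS2 had 0 counts in every library, which allows up to 0.111 to 0.147 CPM (counts per library total, scaled), from counting error only.

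PRSS22, a secreted tryptase-like protease (chr16:2852729-2858630, hg38, minus strand), was higher in both treated groups, the pattern for which it was chosen. It stood at 1.56 and 0.823 TPM in Vector and at 3.94 and 7.09 TPM in EBF2-OE. In Vehicle it stood at 1.12 and 1.69 TPM and in GSK-LSD1 at 4.36 and 3.15 TPM. The treated libraries lay above their controls in both experiments, on counts of 11 to 26 in the controls and 41 to 90 after treatment. The log2 fold change of PRSS22 was 2.25 (SE 0.510) for EBF2-OE against Vector and 1.44 (SE 0.312) for GSK-LSD1 against Vehicle.

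PRSS36, a secreted protein with several protease domains in 1 chain (chr16:31138926-31150083, minus strand), followed the same order, again as chosen. From Vector to EBF2-OE its levels went from 2.01 and 1.56 TPM to 3.40 and 5.93 TPM. In the other experiment GSK-LSD1 libraries stood at 6.65 and 6.92 TPM, over Vehicle at 3.45 and 3.25 TPM. Both treated groups lay above their own controls, although the lower EBF2-OE library lay between the Vehicle libraries. PRSS36 had a log2 fold change of 1.42 (SE 0.376) with EBF2-OE and of 1.05 (SE 0.137) with GSK-LSD1. For both genes the EBF2-OE library with more EBF2 counts (90100) was also the one with the higher level. Without that library the log2 fold change with EBF2-OE was 1.76 for PRSS22 and 0.95 for PRSS36, and whether EBF2 dose plays a part was not tested.

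The question put to the other 8 genes was whether relatives of PRSS22 and PRSS36 moved with either treatment. Under GSK-LSD1, prostasin, hepsin and the inhibitor SPINT2 rose, while matriptase, PRSS23, TMPRSS4 and SPINT1 were not called. Calls required an adjusted p under 0.05 together with more than a 1.5-fold change (edgeR quasi-likelihood test, Benjamini-Hochberg over all genes tested). Of the 8 genes, 7 had enough counts to be tested, 3 were called higher and 0 lower. Among the 16059 genes tested, 2.53% were called higher and 2.04% lower. The median log2 fold change of the 7 was 0.53, beside −0.0059 over all genes tested. That count and median hold only for genes that passed the count filter, which HPN passed through its GSK-LSD1 libraries alone. PRSS8 had only 1 Vehicle library over the filter level, so it too needed its GSK-LSD1 libraries to pass. The count and median therefore favour genes that are high under GSK-LSD1. The 8 genes were also chosen with earlier results of these data known, so the count is not an independent test of the family.

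PRSS8, the membrane-anchored protease that activates the epithelial sodium channel (chr16:31131433-31135727, minus strand), went from 8 and 13 counts (Vehicle) to 38 and 35 (GSK-LSD1). In TPM these were 0.453 and 0.680 against 2.27 and 2.17. Both treated libraries lay far above both controls, and PRSS8 had a log2 fold change of 1.98 (SE 0.355, edgeR adjusted p = 0.00367). HPN, the hepatocyte-enriched protease that also activates pro-hepatocyte growth factor (chr19:35040506-35066573, plus strand), went from 4 and 4 counts to 30 and 23. The levels were 0.156 and 0.144 TPM against 1.24 and 0.985 TPM, again with no overlap. Its log2 fold change was 2.88 (SE 0.476, edgeR adjusted p = 0.00232), and the ratio of summed counts, scaled for library size, was 7.56 with a 95% counting interval from 3.57 to 18.4. Even after treatment hepsin and prostasin stayed below 3 TPM.

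The inhibitor SPINT2 (chr19:38264573-38292615, plus strand) rose with them. The Vehicle libraries held 38 and 22 of its counts and the treated ones 80 and 87, or 2.34 and 1.25 TPM against 5.20 and 5.88 TPM. The groups did not overlap, although the Vehicle libraries differed from each other more than the treated ones did. SPINT2 had a log2 fold change of 1.66 (SE 0.274, edgeR adjusted p = 0.00232). The closely related inhibitor SPINT1 (chr15:40844048-40858207, plus strand) stood at 1.23 and 0.768 TPM in Vehicle and at 0.630 and 1.13 TPM in GSK-LSD1. Its groups overlapped, with a log2 fold change of −0.15 (SE 0.373, edgeR adjusted p = 0.828).

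These 3 calls were not made in every fit. In 1 fit over all 8 libraries none was called, at log2 fold changes of 1.99 for PRSS8, 2.88 for HPN and 1.66 for SPINT2, with edgeR adjusted p of 0.0799 for PRSS8, 0.0535 for HPN and 0.0990 for SPINT2, and without GSK-LSD1 library 1 only SPINT2 was called. DESeq2 called PRSS8 and SPINT2 and gave no adjusted p for HPN.

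ST14, the protease that SPINT1 and SPINT2 restrain (chr11:130159782-130210362, plus strand), was level. It stood at 31.2 and 32.5 TPM in Vehicle and at 30.4 and 30.5 TPM in GSK-LSD1. The log2 fold change was −0.03 (SE 0.0659, edgeR adjusted p = 0.780), a difference smaller than its own error. PRSS23 (chr11:86791071-86952910, plus strand) stood at 80.4 and 79.6 TPM in Vehicle and at 86.5 and 88.0 TPM in GSK-LSD1. The libraries did not overlap, but the log2 fold change of 0.16 (SE 0.0461, edgeR adjusted p = 0.0358) was below the fold limit. TMPRSS4 (chr11:118077016-118125505, plus strand) had 12 to 24 counts in these libraries, with groups that overlapped and a log2 fold change of 0.53 (SE 0.435, edgeR adjusted p = 0.445).

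**Figure D1:**
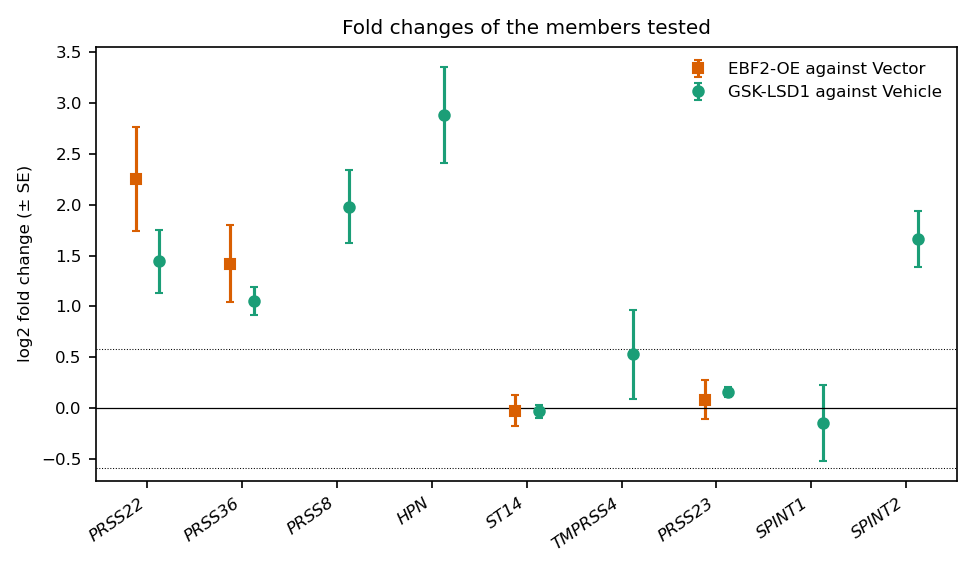
Log2 fold change (vertical axis, with its standard error) of each member tested, for EBF2-OE against Vector (squares) and GSK-LSD1 against Vehicle (circles). Dotted lines mark a fold change of 1.5. PRSS8, HPN, TMPRSS4, SPINT1 and SPINT2 have no square because they had too few counts in Vector and EBF2-OE, and ST14 lay at −0.02 and −0.03.

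With EBF2-OE, few of the family could be measured. Of the 8 genes, 2 passed the count filter (PRSS23 and ST14) and 0 were called by edgeR, at either adjusted or unadjusted p under 0.05, or by DESeq2. The background was 0% of 15560 genes at adjusted p, 0.951% at unadjusted p and 0.0532% by DESeq2. PRSS23 stood at 49.8 and 64.1 TPM in Vector and at 52.6 and 65.8 TPM in EBF2-OE, with a log2 fold change of 0.08 (SE 0.189). ST14 stood at 35.9 and 27.9 TPM in Vector and at 32.0 and 29.4 TPM in EBF2-OE, with a log2 fold change of −0.02 (SE 0.156). In both cases the groups overlapped and the edgeR adjusted p was 1.00.

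The remaining members had too few counts for a test. Only for SPINT1 did both EBF2-OE libraries lie above both Vector libraries, an order of 2 against 2 whose share over all genes was not counted. SPINT1 had 1 and 4 counts in Vector and 9 and 20 in EBF2-OE, a ratio of summed counts, scaled for library size, of 6.03 with a 95% counting interval from 2.31 to 19.9. This interval covers counting error only and not the spread between libraries. PRSS8 summed to 16 counts in Vector and 16 in EBF2-OE, a ratio of 1.04 with an interval from 0.487 to 2.22. SPINT2 summed to 12 and 14 counts, and its ratio of 1.21 had an interval from 0.520 to 2.87. HPN had at most 3 counts in any of these 4 libraries and TMPRSS4 had 6 and 9 against 19 and 6, so a difference was not detectable at this depth.

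Whether the treatments differed in their effect was tested over all 8 libraries. Of the 7 family genes tested, 0 differed at adjusted p, by edgeR or by DESeq2, and the same held for 0% of all 16558 genes by edgeR and 0.686% by DESeq2. At unadjusted p under 0.05, 3 of the 7 passed, against 4.34% of all genes. HPN had 1 to 4 counts outside its GSK-LSD1 libraries, so it needed those to pass the count filter. For HPN, PRSS8 and SPINT1 the EBF2-OE effect rests on counts too few for a test of their own. The 3 of 7 is therefore a description only. The difference, EBF2-OE effect minus GSK-LSD1 effect on the log2 scale, was −3.75 for HPN (SE 1.15, edgeR adjusted p = 0.490), −1.91 for PRSS8 (SE 0.657, edgeR adjusted p = 0.533) and 2.69 for SPINT1 (SE 0.904, edgeR adjusted p = 0.527). The rise of prostasin, hepsin and SPINT2 with GSK-LSD1 is therefore not shown to be particular to that treatment. For ST14 the difference was −0.00029 (SE 0.164), and for SPINT2 it was −1.36 (SE 0.711, edgeR adjusted p = 0.719).

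The control groups differed in the Kunitz inhibitors. SPINT1 had 1 and 4 counts in Vector against 37 and 25 in Vehicle, and SPINT2 had 4 and 8 against 38 and 22. In Vector SPINT1 was lower by a log2 fold change of −3.35 (SE 0.622, edgeR adjusted p = 0.0187) and SPINT2 by −2.08 (SE 0.543, edgeR adjusted p = 0.0419). Of the 8 family genes 5 were tested, 2 were called lower and 0 higher, where 10.2% of 16019 genes were called lower and 5.79% higher. TMPRSS4, SPINT1 and SPINT2 were under the filter level in both Vector libraries, so this count favours genes that are low in Vector. Both inhibitors passed the count filter only through the Vehicle libraries, and neither was called without Vehicle library 1 or without Vehicle library 2. SPINT2 was also not called by DESeq2 or without Vector library 2. PRSS23 was lower in Vector by −0.51 (SE 0.142, edgeR adjusted p = 0.0497), under the fold limit, but without Vector library 3 it was called, at −0.73 (edgeR adjusted p = 6.64e-05). ST14 was at −0.02 (SE 0.127). PRSS36 was also lower in Vector, at −0.93 (SE 0.234), and PRSS22 was at −0.28 (SE 0.449). Marker genes differed between the same libraries. Of 8 epithelial markers tested 1 was called lower in Vector, KRT18 at −0.99 (SE 0.0734). Of 12 mesenchymal markers 3 were called higher, SNAI1 at 1.14 (SE 0.106), SNAI2 at 1.76 (SE 0.310) and ZEB2 at 0.85 (SE 0.183), and 2 lower, TWIST1 at −0.83 (SE 0.216) and COL3A1 at −0.81 (SE 0.184). Of 7 leukocyte and endothelial markers CDH5 (−3.09, SE 0.237) and VWF (−2.38, SE 0.343) were called lower and CD68 (0.96, SE 0.161) higher. Summed over each list, epithelial markers reached 4771 to 5146 TPM in Vector and 7323 to 7434 TPM in Vehicle, and mesenchymal markers 1395 to 1503 TPM and 1436 to 1590 TPM. Their part in the lower SPINT1 and SPINT2 was not tested. The vector and the experiment in which the cells were grown cannot be told apart here.

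The proportion of ST14 to its Kunitz inhibitors differed between groups. The TPM of ST14 divided by the summed TPM of SPINT1 and SPINT2 was 41.8 and 104 in the Vector libraries and 25.3 and 32.3 in EBF2-OE. It was 8.73 and 16.1 in Vehicle and 4.35 and 5.21 in GSK-LSD1. The ranges of the 4 groups did not overlap, and ST14 RNA exceeded that of both inhibitors together in every library. In Vector the inhibitors had only 1 and 4 counts (SPINT1) and 4 and 8 counts (SPINT2), so the Vector ratios are imprecise. Because ST14 was level, the ratio mainly restates the inhibitor values. Its gap between Vector and Vehicle cannot be told apart from the experiment in which the cells were grown. The summed inhibitors averaged 0.507 ± 0.227 TPM in Vector and 1.08 ± 0.121 TPM in EBF2-OE, and stood at 2.80 ± 1.10 TPM with vehicle against 6.42 ± 0.834 TPM with GSK-LSD1 (SD, n = 2). These are RNA ratios chosen after the single values were known, and the protein was not measured here.

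**Figure D2:**
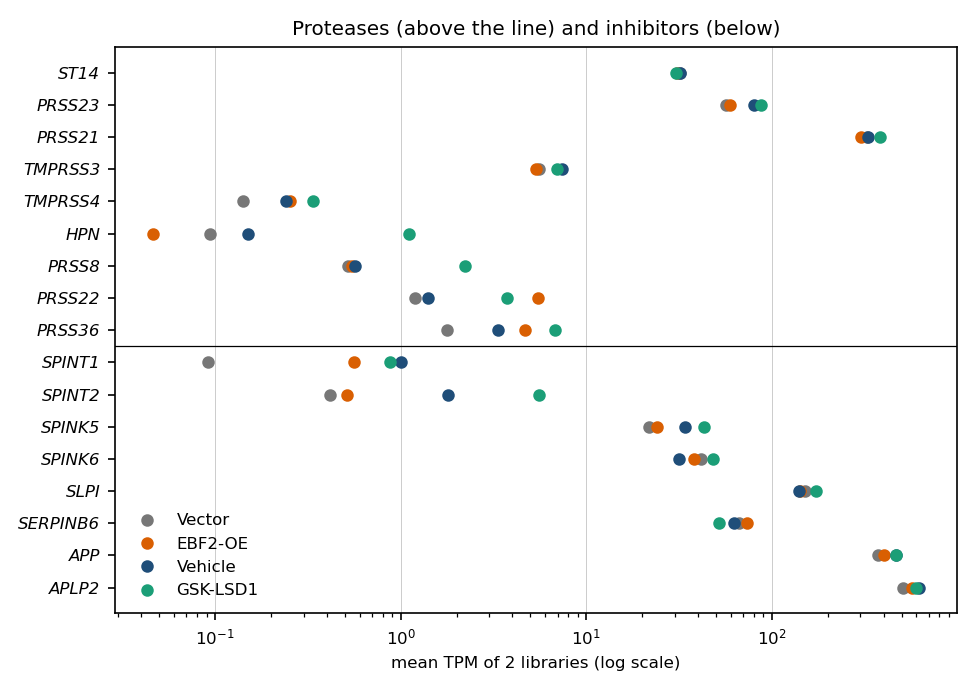
Mean TPM of 2 libraries (horizontal log axis) for proteases above the line and inhibitors below it, in the 4 groups. SPINT1 and SPINT2 lay below 6 TPM in every group, whereas the inhibitors APLP2 and APP averaged 575 and 428 TPM.

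Among the other serine proteases, the membrane-anchored, PRSS, digestive and kallikrein lists held no call under GSK-LSD1. With 2.53% of all genes tested called higher and 2.04% lower, the lack of a call among so few genes tells little about these lists. Of 16 further membrane-anchored serine proteases, 4 were tested and 0 called under GSK-LSD1, with a median log2 fold change of 0.25, and 11 had at most 10 counts in every library. The exception in level was PRSS21 (testisin), a GPI-anchored protease 31.0 kb from PRSS22, at 335 TPM on average, with a log2 fold change of 0.26 (SE 0.0492) below the fold limit. TMPRSS3 followed at 6.32 TPM, with a log2 fold change of −0.04 (SE 0.145). Of 17 further PRSS genes 5 were tested and 0 called, among them PRSS53 at −0.12 (SE 0.119) and PRSS27 at −0.54 (SE 0.219). The 15 pancreatic digestive proteases were nearly silent, with 13 at 10 counts or fewer, and CTRL and CELA2B, the 2 tested, were not called. Of the 15 kallikrein-related peptidases 14 were at 10 counts or fewer, and KLK1, the only one tested, was at 0.08 (SE 0.360).

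Among plasminogen activation genes 1 of 4 tested was called under GSK-LSD1, where 2.53% of all genes tested were called higher and 2.04% lower. PLAT, tissue plasminogen activator, went from 496 and 512 to 826 and 806 counts. It rose by a log2 fold change of 0.89 (SE 0.0798, edgeR adjusted p = 5.58e-05). PLAUR, the urokinase receptor, was at 0.29 (SE 0.0813).

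Of 29 other serine protease inhibitors 14 were tested, 2 were called higher and 0 lower, with a median log2 fold change of 0.19. The shares over all genes tested were 2.53% higher and 2.04% lower. SERPINI1 (neuroserpin), an inhibitor of PLAT, went from 86 and 84 to 170 and 159 counts, a log2 fold change of 1.15 (SE 0.151, edgeR adjusted p = 0.000611). SPINK6, a Kazal-type inhibitor of kallikreins, had 199 and 192 counts against 278 and 259, a log2 fold change of 0.65 (SE 0.121, edgeR adjusted p = 0.00449). The abundant Kunitz-domain genes APLP2 and APP were at −0.0076 (SE 0.0415) and 0.03 (SE 0.0442).

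Few substrates and receptors of these proteases were called. Of the 21 listed, 14 were tested, 1 was called higher and 1 lower, with a median log2 fold change of 0.094. Over all genes tested, 2.53% were called higher and 2.04% lower. CDCP1, a surface protein that matriptase cleaves, went from 56 and 59 to 78 and 94 counts, a log2 fold change of 0.78 (SE 0.195, edgeR adjusted p = 0.0194). SCNN1A, the sodium channel subunit on the prostasin pathway, had 850 and 894 counts against 468 and 487, a log2 fold change of −0.67 (SE 0.0804, edgeR adjusted p = 0.000339). The other listed subunit genes, SCNN1B and SCNN1G, had at most 1 count in any library. TFRC and CLDN7, the most abundant of the list at 108 and 80.1 TPM, were at 0.46 (SE 0.0449) and −0.21 (SE 0.0580), both within the fold limit. The epithelial keratin KRT7 was called lower in the same libraries, at −0.69 (SE 0.0529, edgeR adjusted p = 2.19e-05), the only one of 7 epithelial markers tested that was called. VIM was at −0.46 (SE 0.0601), and 0 of 12 mesenchymal markers tested were called. Of 7 leukocyte and endothelial markers tested, 1 was called lower, CDH5 at −0.97 (SE 0.149). The part of these markers in the rise of PRSS8, HPN and SPINT2 was not tested.

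With EBF2-OE 0 genes of these lists were called, as were 0% of all genes tested, EBF2 itself included, so that count tells nothing about the lists. Between the controls 10.2% of all genes tested were called lower in Vector and 5.79% higher, against which the following calls are to be read. PLAU was lower in Vector (−1.12, SE 0.186), and the inhibitors SERPINB8 (2.02, SE 0.248), SERPINE2 (1.53, SE 0.126) and TFPI2 (0.82, SE 0.139) were higher. SCNN1A (−2.34, SE 0.118) and CLDN7 (−1.28, SE 0.103) were lower in Vector, with MET (0.82, SE 0.0740) and EGFR (0.62, SE 0.0672) higher. Of the proteases, PRSS56 (−2.90, SE 0.586), KLK1 (−1.98, SE 0.389) and CELA2B (−1.75, SE 0.467) were lower and PRSS54 (0.86, SE 0.241) was higher. All of these passed both limits in edgeR, KLK1 only through its Vehicle libraries, with 5 and 6 counts in Vector against 25 and 27.

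PRSS8 and PRSS36 are neighbours on chromosome 16. They lie on the same strand with 3198 bases between them, and both were higher under GSK-LSD1. KAT8, BCKDK, VKORC1 and PRSS53, which also lie within 50 kb of PRSS36, were tested and not called, with log2 fold changes from −0.23 to 0.30. KAT8 ends 39 bases from PRSS8 on the opposite strand, with 721 and 632 counts before and 499 and 512 after treatment. KAT8 stood at −0.23 (SE 0.111) on the log2 scale and so had the opposite sign to PRSS8. Around PRSS22, 4 of 6 neighbours were tested and 0 called, including FLYWCH2 at 0.24 (SE 0.0508) and ZG16B at 0.38 (SE 0.162). Of all genes tested 2.53% were called higher and 2.04% lower, so these few neighbours cannot show whether a change is confined to the member.

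Near HPN, 1 of 3 neighbours tested was called, where 2.53% of all genes tested were called higher and 2.04% lower. FXYD3, which encodes a regulator of the sodium pump and lies 49.2 kb away, was called higher at 0.62 (SE 0.150, edgeR adjusted p = 0.0167). GRAMD1A, on the other side of HPN, was at −0.16 (SE 0.0537). The antisense gene HPN-AS1 overlaps HPN and had 0 to 5 counts. The strand setting of the counting is not given in the sources used here, so reads of overlapping genes cannot be told apart. This also touches PRSS23, which FZD4 overlaps from the opposite strand with 202 to 415 counts against 4301 to 9209 for PRSS23. SPINT1-AS1, which overlaps SPINT1, had at most 1 count.

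The start regions of PRSS36 and HPN are shown because both genes were higher under GSK-LSD1 and both have an entry in the RefSeq promoter table (GRCh38.p14), which holds 4 of the 10 genes. Each window runs from 250 bases before to 50 bases after the annotated start, 5′ to 3′ on the strand of the gene. Capitals mark the letters TCCCNNGGG (a core bound by EBF proteins), CAGGTG (an E-box of the kind bound by Snail proteins, which recruit KDM1A) and CCGCCC (a GC box), on either strand.
PRSS36 (chr16:31150017-31150316, minus strand): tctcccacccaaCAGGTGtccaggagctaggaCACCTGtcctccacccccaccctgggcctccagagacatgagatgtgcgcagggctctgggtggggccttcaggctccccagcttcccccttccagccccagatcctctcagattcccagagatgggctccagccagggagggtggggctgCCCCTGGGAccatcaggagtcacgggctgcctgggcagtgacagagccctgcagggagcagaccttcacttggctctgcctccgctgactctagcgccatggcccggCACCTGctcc
HPN (chr19:35041471-35041770, plus strand): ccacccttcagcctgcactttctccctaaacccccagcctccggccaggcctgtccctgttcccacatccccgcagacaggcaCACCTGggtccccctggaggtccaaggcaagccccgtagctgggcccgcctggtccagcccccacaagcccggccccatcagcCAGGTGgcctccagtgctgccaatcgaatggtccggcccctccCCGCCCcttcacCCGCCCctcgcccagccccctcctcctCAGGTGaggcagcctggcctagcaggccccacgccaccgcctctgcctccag
The PRSS36 window held the EBF core once, at −67, and the E-box at 3 places (−238, −218 and 40). In the HPN window the E-box also occurred at 3 places (−167, −84 and −2) and the GC box at 2 (−41 and −29), with no EBF core. The HPN start in this table lies 1215 bases downstream of the start in the count table. Among 35116 promoter windows of this length, 8.86% held the EBF core, 20.6% the E-box and 45.0% the GC box. PRSS23, which was not called, held the EBF core in 1 of its 2 windows, at −191. PRSS23 and SPINT1, neither called under GSK-LSD1, also held the E-box, at −212 and −26, so all 4 genes with an entry held it. Their GC boxes numbered 5 and 3. These matches are letters in a window and not evidence of binding.

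The genes whose pattern over the 8 libraries was most like that of PRSS22 were PRSS36, HID1 and CEACAM1. Likeness was the root mean square difference in log2 CPM, after the mean of the matching control group was set to 0, and 16557 genes were searched. The differences were 0.275 for PRSS36, 0.289 for HID1 and 0.355 for CEACAM1. HID1 had 11 and 6 counts in Vector against 20 and 80 in EBF2-OE, and went from 22 and 20 to 43 and 54 with GSK-LSD1. The EBF2-OE library with more EBF2 was the higher, an order that the search for likeness to PRSS22 selects for. For PRSS36 the most alike were UGT1A8 (0.218), UGT1A1 (0.227) and UGT1A10 (0.227), which share exons and gave nearly the same counts, so they stand for 1 locus. UGT1A8 had 2 and 4 counts in Vector against 9 and 20 in EBF2-OE, and went from 12 and 13 to 39 and 37 with GSK-LSD1. Since the patterns of PRSS22 and PRSS36 chose them, this closeness is a description only.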

How the data were processed

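Poly(A)-selected RNA of SW1990 cells was sequenced with paired ends of 150 bases. HISAT2 (default settings, hg38) and HTSeq gave the authors their read number per gene, and the deposited raw counts are not normalized. The deposited TPM values equal, in a check, count over gene length, rescaled per library by the authors. Tool versions, annotation release and strand setting are not given in the sources used here. The table also holds gene lengths and coordinates.

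Counts were tested with edgeR 4.0.16 (R 4.3.3) using TMM factors, its quasi-likelihood test and filterByExpr (minimum count 10), on the 4 libraries of each comparison, or on all 8 for the difference between the effects. All p-values are two-sided, with Benjamini-Hochberg adjustment across every gene tested. A call needs a fold change above 1.5 and an adjusted p under 0.05. The study's methods give the same fold limit and a p under 0.05, and name Benjamini-Hochberg correction. SE is the absolute log2 fold change divided by the root of the test statistic. Count intervals are exact, at 95%, and cover counting error only. TPM served to compare levels, and CPM with a pseudocount of 0.5 to find genes of like pattern. The share of all genes whose groups of 2 libraries do not overlap was not counted, so non-overlap is a description only. Library pairs of a group differed by more than sampling noise (chi-square per degree of freedom from 5.34 to 32.9) and were kept as separate libraries. Alternatives were DESeq2 1.42.0, its size factors in edgeR, no low-count filter, 1 fit over all libraries, the replicate number as a block, each library left out, and unadjusted p, an alternative chosen after seeing the data.

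The members and gene lists were chosen with earlier results of these data known. All members are named. Of each further list, up to 4 called genes with the largest change and up to 2 with the highest TPM are named, with the 3 genes most like PRSS22 and PRSS36 and the genes next to a member. HID1, CEACAM1, FXYD3 and others enter by that rule. The markers named for the cell type check and KRT7, VIM and COL3A1 were chosen after their values were seen. No promoter entry was found for PRSS22, PRSS8, ST14, TMPRSS2, TMPRSS4 or SPINT2. Results for some further genes of the naming rule are not reported here.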

Additional observations from a re-analysis of the deposited data

How the results depend on the processing

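Under GSK-LSD1 the count of family genes called was 3 except for 0 in 1 fit over all 8 libraries, 2 by DESeq2 (which gave no adjusted p for HPN), and 1 to 3 when a library was left out. Between Vector and Vehicle the count of 2 became 1 by DESeq2 and ran from 0 to 3 when a library was left out, PRSS23 being the gene added without Vector library 3. For the difference between the effects, 0 family genes were called except 3 at unadjusted p. With EBF2-OE the count was 0 under every alternative run. Over the alternatives the adjusted p ran from 0.000356 to 0.0799 for PRSS8, from 0.000178 to 0.0535 for HPN and from 1.57e-09 to 0.0990 for SPINT2.

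Some values that were not called changed sign. The ST14 difference between the effects was 0.00181 by DESeq2, 0.00167 with its size factors, 0.00040 without the low-count filter and 0.00540 with the replicate block. When single libraries were left out, log2 values ran from −0.10 to 0.31 (PRSS23) and from −0.17 to 0.15 (ST14) with EBF2-OE, from −0.60 to 0.24 for SPINT1 with GSK-LSD1, and from −0.76 to 0.10 (PRSS22) and −0.18 to 0.13 (ST14) between the controls. The same range for the difference between the effects was −0.090 to 0.71 for PRSS36, −0.26 to 0.15 for PRSS23, −0.14 to 0.18 for ST14 and −0.85 to 0.95 for TMPRSS4. Leaving out a library leaves 1 in its group, which is assumed to vary like the others. The cause of these changes was not tested.

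The replicate numbers in the labels are not explained, and same-numbered libraries deviated together with a correlation of 0.35 for EBF2-OE and Vector and of −0.014 for GSK-LSD1 and Vehicle. With the replicate block the family counts stayed at 0 for EBF2-OE, 3 for GSK-LSD1 and 0 for the difference. No paired analysis was possible between Vector and Vehicle because they share only 1 number. Depth limits PRSS8, HPN, SPINT1 and SPINT2, which had 13 counts or fewer in at least 1 group, and TMPRSS2 and TMPRSS4.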
